A study of Mus musculus with 4 samples.

Results

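Regulated exocytosis was examined through 58 genes of its fusion, calcium-sensing and priming machinery in the pair of mouse pituitary cell types that make pro-opiomelanocortin. The genes were taken from a list of symbols, chosen with earlier results of these data known. All 58 were found among the 24063 genes of the deposited table, as 112 of its 33072 transcripts. In POMC-EGFP mice of strain C57B6, the lobes were dissected apart and GFP-positive cells were sorted, giving corticotropes from the anterior and melanotropes from the intermediate lobe. Every library thus came from cells carrying the EGFP transgene under Pomc control, and since this reporter marks both cell types, their separation rested on the dissection. Paired-end libraries of rRNA-depleted total RNA were made, 2 per cell type. The labels give neither age nor sex, and they do not say whether the libraries came from separate sorts, so p-values measure the spread between these libraries, which may be technical.

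As background, secretory granules fuse with the plasma membrane when a SNARE of the granule (a VAMP) zips up with SNAREs of the target membrane (a syntaxin and SNAP25 or a relative). Munc13, CAPS and RIM proteins dock and prime granules, complexins hold and then assist the zippering, synaptotagmins and Doc2 proteins trigger fusion when calcium binds, and NSF with its SNAP adaptors pulls spent SNARE complexes apart. Corticotropes use this machinery to release ACTH in response to CRH and vasopressin, and melanotropes use it to release α-MSH under tonic inhibition by dopamine.

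Levels are FPKM, reads per kilobase of transcript scaled to the depth of the library, rescaled between libraries so that the median gene does not differ, and each gene is represented by its longest transcript. Depth was read from the spacing of low FPKM values, which implied approximately 97082102 and 187079962 reads over these transcripts in the corticotrope libraries and 145839154 and 149464694 in the melanotrope libraries. Markers placed the libraries as labelled, with Crhr1 at 127 and 138 FPKM in corticotropes against 8.20 and 6.93 in melanotropes, and Pax7 at 9.54 and 7.94 against 57.7 and 55.2. Of 9 markers of POMC cells, 3 were higher in melanotropes, 4 were lower and 2 were not called. The other 2 higher were also read in corticotropes, Drd2 at 17.6 and 16.6 against 104 and 114 FPKM and Pcsk2 at 100 and 73.3 against 687 and 600. Of 14 markers of other anterior-lobe hormone lineages, 13 were tested and all 13 were lower in melanotropes. Their summed level was 5871 and 5638 FPKM in corticotropes, led by Gh and Prl, and 14.9 and 62.9 in melanotropes. Markers of posterior-lobe glia and stellate cells summed to 36.3 and 40.2 FPKM in corticotropes and to 49.6 and 57.4 in melanotropes, with 4 of 5 tested higher and Vim lower. Of these, Slc1a3, a glial glutamate transporter, was at 1.56 and 2.08 against 11.2 and 13.9 FPKM, and Rax, a factor of posterior-lobe pituicytes, at 0.00827 and 0.0260 against 2.71 and 2.93. Sox2 was at 13.0 and 15.8 against 23.0 and 25.5 FPKM, Sox9 at 0.546 and 0.571 against 1.25 and 1.22, and Vim at 19.6 and 20.1 against 9.71 and 11.8. The rest of this list was under 1 FPKM in every library and not tested. Gfap was at 0.0827 and 0.0865 against 0.343 and 0.391 FPKM, Nkx2-1 at 0.0248 and 0.0173 against 0.492 and 0.464, and S100b at 0.157 and 0.164 against 0.240 and 0.159. Aqp4 was at 0.761 and 0.995 against 0.560 and 0.672 FPKM, and Fabp7 at 0.571 and 0.355 against 0.206 and 0.342. Neuronal markers summed to 88.1 and 78.7 against 82.9 and 84.8 FPKM, a sum mostly of Map2, which was not called, with 4 of 8 tested higher and 2 lower. Oxt, the oxytocin gene of neurons that end in the posterior lobe, was at 0 and 0.0173 FPKM in corticotropes and 2.96 and 3.15 in melanotropes, and Avp, the vasopressin gene, at 0 and 0.0173 against 0.457 and 1.01. Rbfox3 was at 1.88 and 1.22 against 12.2 and 8.28 FPKM, and Tubb3 and Nefh were higher too. Slc17a6, a vesicular glutamate transporter, was lower at 15.6 and 14.6 against 0.0686 and 0.110 FPKM, as was Nefm. Slc32a1, the vesicular GABA transporter, was listed at 0 in both melanotrope libraries. Markers of endothelium, blood and immune cells summed to 24.3 and 31.6 against 8.67 and 9.63 FPKM, with 1 of 6 tested higher and 3 lower. The other anterior-lobe cell types, and neurons, also secrete by regulated exocytosis, and the part of any of these cells in the differences below was not tested. Nor was the part of any melanotropes among the sorted corticotropes, or the reverse.

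Of the 58 genes, 50 reached 1 FPKM in at least 2 libraries and were tested, of which 10 were higher and 11 lower in melanotropes at an adjusted p under 0.05 (limma, Benjamini-Hochberg over all genes). Over all 13046 genes tested, 18.9% were called higher and 18.3% lower, 37.2% in all, so that 42.0% of the exocytosis genes is a share near the background. Their median log2 fold change was -0.03, against 0.00 for all genes. Calls with a 2-fold difference or more on the log2(FPKM + 1) scale numbered 5 higher and 4 lower, or 18.0% of the 50, where 4.12% of all genes were called higher and 4.75% lower at that size, 8.88% together. Libraries of the cell types did not overlap for 34 of the 50 genes (68.0%), against 71.1% of all genes. Without the rescaling, on the deposited scale where melanotropes sit lower for most genes, 6 of 51 were called higher (11.8%, against 7.14% of all genes) and 31 lower (60.8%, against 66.8% of all genes). Leaving out corticotrope replicate 1 left 7 of 48 called lower (14.6%, against 11.5% of all genes). For 3 of the 21 called genes, Cplx3, Rph3a and Sv2c, only the libraries of the cell type with the higher level passed the filter, so a gene of that kind had to differ to be tested. In sorted pools such as these, fewer cells of a type and less RNA per cell cannot be told apart. The plot of fold changes by role sets out all 50 tested genes.

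**Figure D1:**
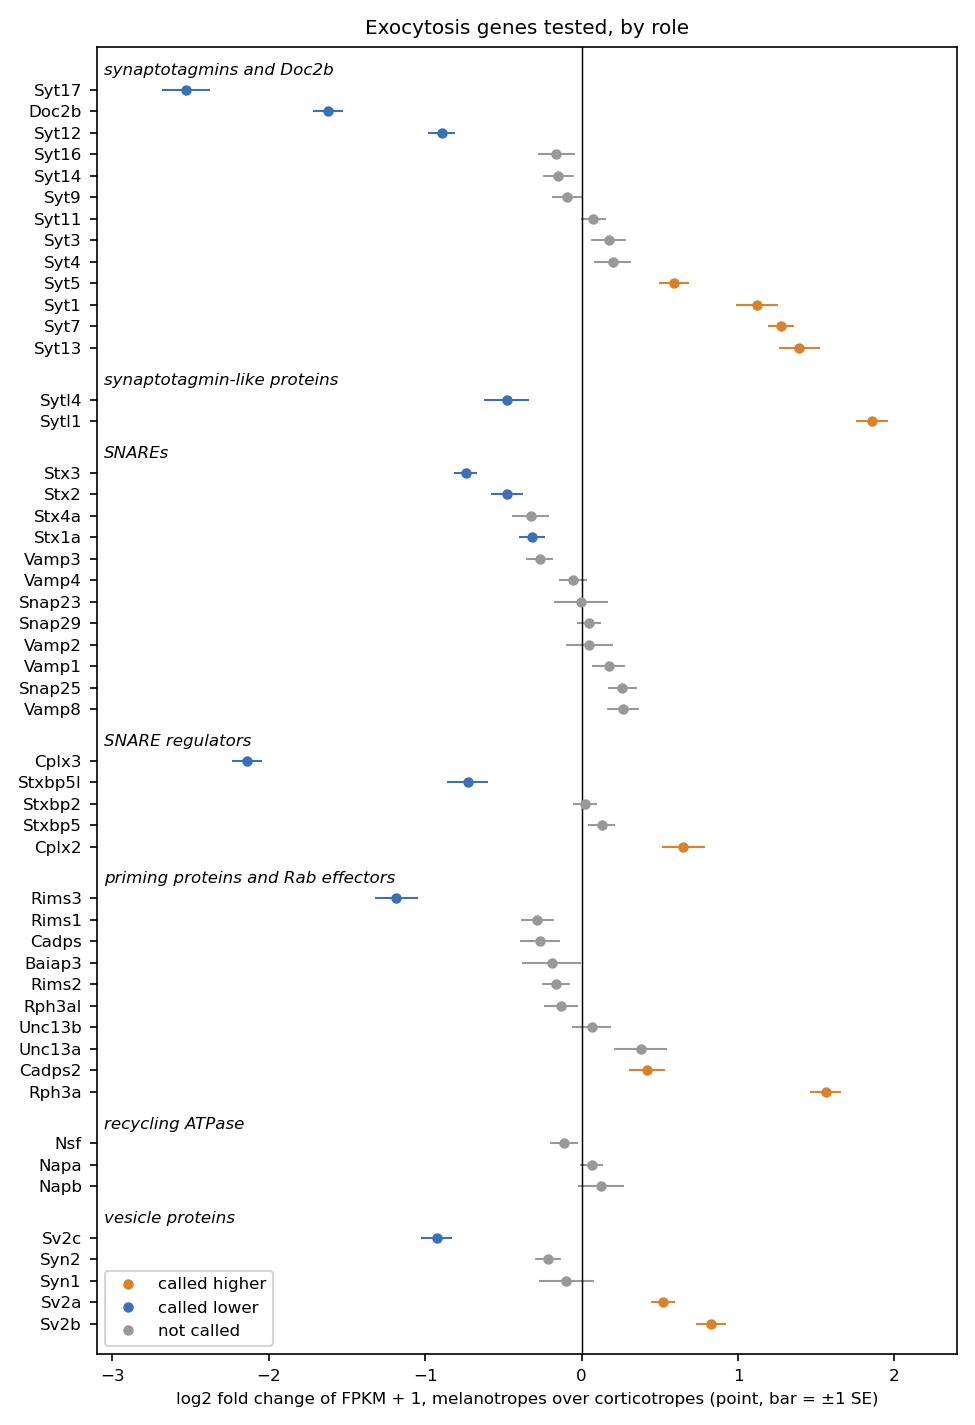
Log2 fold change of FPKM + 1, melanotropes over corticotropes (x axis), for the 50 exocytosis genes tested, grouped by role (y axis). Points are fitted values from 2 libraries per cell type and bars are ±1 standard error. Genes called higher are orange, called lower blue and not called grey. Synaptotagmins with Doc2b run from Syt17 at -2.53 to Syt13 at 1.39, while the SNAREs lie between -0.74 and 0.27.

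Synaptotagmins and Doc2b, the group that holds the calcium sensors, had calls in both directions. Of 16 genes, 13 were tested, 4 were higher in melanotropes, 3 were lower and 6 were not called. Over all genes tested, 18.9% were called higher and 18.3% lower. Syt13 (mm10 chromosome 2, 92915101 to 92956051), a synaptotagmin that does not bind calcium, was at 20.5 and 23.4 FPKM in corticotropes and at 52.7 and 66.5 in melanotropes (log2 fold change 1.39, SE 0.13, adjusted p = 0.000738, limma). The groups did not overlap, and melanotrope replicate 2 was the higher of its pair. Syt7 (chromosome 19, 10389090 to 10453181), a high-affinity calcium sensor of granule release, was at 5.19 and 5.50 against 13.8 and 15.0 FPKM, 2.69 times as high in melanotropes. Its log2 fold change was 1.28 (SE 0.08, adjusted p = 0.000228, limma), and the libraries of each cell type lay close together. Syt1 (chromosome 10, 108497650 to 109010975), the sensor of fast synchronous release, was at 31.9 and 24.4 against 60.0 and 63.8 FPKM, and its log2 fold change was 1.12 (SE 0.13, adjusted p = 0.00171, limma). Here corticotrope replicate 1 stood above replicate 2, and the groups still did not overlap. Syt5, another calcium-binding member of dense core granules, was at 21.6 and 24.5 against 33.2 and 37.3 FPKM (log2 fold change 0.59, adjusted p = 0.00620, limma), and the call was lost with no rescaling (adjusted p = 0.197, range over 15 alternatives 1.72e-05 to 0.197).

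In the other direction, Syt17 (chromosome 7, 118381856 to 118443552), a C2-domain protein without the usual membrane anchor of synaptotagmins, had the lowest log2 fold change of the 50 genes with the pseudocount of 1, while Cplx3 had a larger ratio. It was at 16.2 and 15.0 FPKM in corticotropes and at 1.48 and 2.36 in melanotropes, 8.15 times as high in corticotropes (log2 fold change -2.53, SE 0.15, adjusted p = 0.000192, limma). These values rested on 3603 and 6421 implied reads in corticotropes and 453 and 725 in melanotropes. Doc2b (chromosome 11, 75769090 to 75796057), a soluble high-affinity calcium sensor, was at 9.78 and 8.62 against 2.36 and 2.27 FPKM (log2 fold change -1.62, SE 0.09, adjusted p = 0.000159, limma). Syt12, a synaptotagmin that does not bind calcium, was at 3.37 and 3.40 against 1.34 and 1.38 FPKM, and its log2 fold change was -0.89 (adjusted p = 0.000821, limma). For these 3 genes every corticotrope library lay above every melanotrope library.

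The most abundant synaptotagmin, Syt4, an activity-regulated protein of dense core vesicles, stood at 102 and 119 FPKM in corticotropes and at 117 and 137 in melanotropes, above 97.9% of the genes tested. Its groups overlapped and it was not called (log2 difference 0.20, SE 0.12, adjusted p = 0.243, limma). Its close relative Syt11 was at 9.80 and 8.98 against 9.80 and 10.1 FPKM. Syt3, Syt9, Syt14 and Syt16 had means between 2.32 and 7.65 FPKM in either cell type, log2 differences between -0.16 and 0.17, and no call. Of the 3 genes of this group that missed the filter, Syt6 was at 1.13 and 0.926 FPKM in corticotropes and 0.0343 and 0.0244 in melanotropes, resting on 688 and 1080 implied reads against 29 and 21. By its longest transcript, Syt6 therefore missed the test with 1 library above 1 FPKM. Its transcript of 1590 bases was at 1.69 and 1.21 against 0.02 and 0.02 FPKM on the deposited scale. With each gene taken by its transcript of highest mean FPKM, 51 genes of the set were tested and 13 called lower (25.5%, against 18.3% of all genes). With no expression filter Syt6 was called lower (log2 fold change -0.98, adjusted p = 0.00321, limma). Syt10 was at 0.0993 and 0.121 against 0.0114 and 0.0122 FPKM and was also called lower with no filter (log2 fold change -0.13, adjusted p = 0.0137, limma). Its values rested on only 25 and 59 implied reads against 4 and 4. Syt2, the sensor of fast hindbrain and neuromuscular synapses, was below 0.04 FPKM in every library.

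As shares of the summed synaptotagmin FPKM, which do not depend on the scaling between libraries, Syt4 took 44.2% and 49.1% in corticotropes and 38.3% and 39.0% in melanotropes. Syt1 and Syt13 took 13.8% and 10.1%, and 8.89% and 9.70%, of the corticotrope sum. Their shares in melanotropes were 19.6% and 18.2% for Syt1 and 17.3% and 19.0% for Syt13. Syt17 went from 7.02% and 6.22% to 0.483% and 0.673%. The sum over the 15 synaptotagmins was 236 ± 7.49 FPKM in corticotropes and 328 ± 31.9 in melanotropes (SD, n = 2), and on the deposited scale the groups overlapped (279.0 and 278.9 against 267 and 287).

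**Figure D2:**
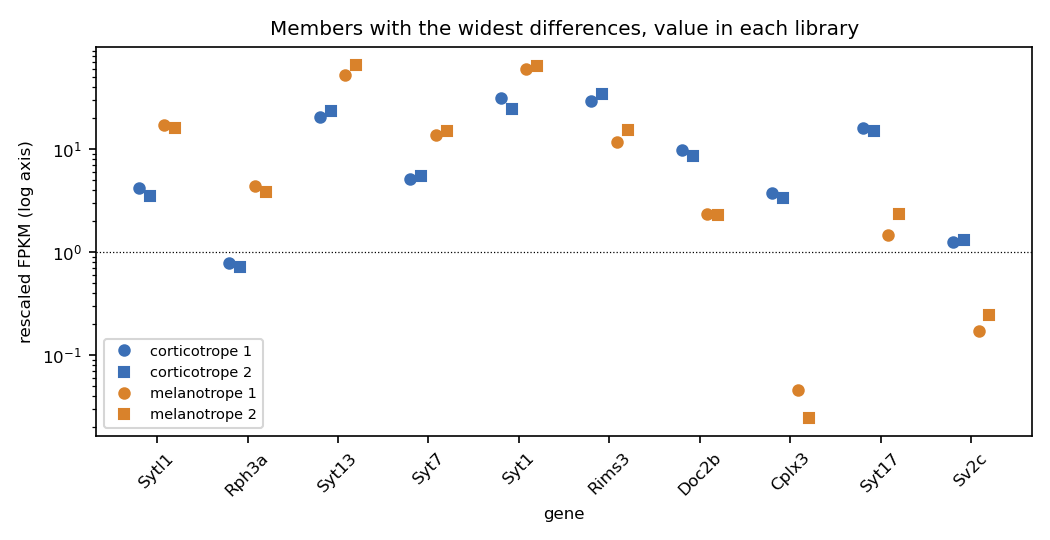
Rescaled FPKM (log axis) in each of the 4 libraries for the 9 genes called at 2-fold or more, in order of fold change, and for Sv2c. Blue marks corticotrope and orange melanotrope libraries, circles replicate 1 and squares replicate 2, and the dotted line is the filter at 1 FPKM. The groups do not overlap for any of the 10 genes, which is largely set by their choice from the called genes. Over all genes tested, 71.1% do not overlap. Cplx3 in melanotropes sits at 0.0457 and 0.0244 FPKM.

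Synaptotagmin-like proteins tether granules through Rab27. Sytl1 (chromosome 4, 133253090 to 133263087) had the highest log2 fold change of the 50 genes with the pseudocount of 1, at 4.24 and 3.50 FPKM in corticotropes and 17.0 and 16.1 in melanotropes (log2 fold change 1.86, SE 0.10, adjusted p = 0.000131, limma). Sytl4 (chromosome X, 133936385 to 133981812), known as granuphilin, was the abundant member, at 111 and 116 against 70.2 and 94.1 FPKM. It was called lower by a narrow margin (log2 fold change -0.48, SE 0.14, adjusted p = 0.0469, limma). Dropping either corticotrope library (adjusted p = 0.102 for replicate 1 and 0.142 for replicate 2, with log2 differences of -0.51 and -0.45) or melanotrope replicate 1 (0.151, with -0.27) ended the call, as did 5 other settings, over a range of 0.000464 to 0.151 in 15 alternatives. Sytl1 took 3.66% and 2.90% of the summed FPKM of the 4 genes in corticotropes and 19.4% and 14.5% in melanotropes. Sytl2 and Sytl5 stayed below 1 FPKM in every library, and Sytl5, at 0.215 and 0.208 against 0.0572 and 0.0611 FPKM, was called lower when no filter was set (log2 fold change -0.19, adjusted p = 0.00627, limma).

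All 12 core SNAREs were tested, none was called higher, 3 were called lower and 9 were not called (2 higher and 5 lower at an unadjusted p under 0.05, limma). The adjusted calls stand beside 18.9% of all genes called higher and 18.3% lower. Snap25 (chromosome 2, 136713450 to 136782428), the plasma-membrane SNARE cut by botulinum toxin A, was the most abundant SNARE, above 98.2% of the genes tested. It was at 126 and 115 FPKM in corticotropes and at 149.7 and 139.8 in melanotropes (log2 difference 0.26, SE 0.09, adjusted p = 0.0721, limma). Although its groups did not overlap, its difference missed the threshold, and on the deposited scale its sign turned (log2 difference -0.22). With the replicate number as a block, a pairing that the labels do not state, it was called higher (adjusted p = 0.00189, limma). Its widely expressed relative Snap23 was at 11.5 and 9.16 against 12.1 and 8.65 FPKM, and Snap29, which acts on inner membranes, at 9.61 and 9.70 against 9.63 and 10.4. Snap25 made up 85.6% and 86.0% of the FPKM of these 3 genes in corticotropes and 87.3% and 88.0% in melanotropes.

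Among granule-side SNAREs, Vamp8, known from exocrine secretion, had the highest FPKM, at 55.6 and 59.7 in corticotropes and 63.9 and 75.5 in melanotropes (adjusted p = 0.0969, limma). Vamp2, the synaptic vesicle SNARE, was at 26.2 and 19.4 against 24.8 and 22.0 FPKM, with overlapping groups. Vamp3, its widely expressed relative, was at 24.6 and 27.1 against 20.5 and 22.1 FPKM (log2 difference -0.27, adjusted p = 0.0549, limma). Vamp4, of the trans-Golgi network, and Vamp1 were at 16.9 ± 1.13 against 16.2 ± 1.25 and at 3.61 ± 0.506 against 4.18 ± 0.0612 FPKM (SD, n = 2), and neither was called.

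The plasma-membrane syntaxins were the SNAREs with calls. Stx3 (chromosome 19, 11777485 to 11819403), a syntaxin of apical membranes and ribbon synapses, was at 18.6 and 17.7 FPKM in corticotropes and 10.5 and 10.4 in melanotropes (log2 fold change -0.74, SE 0.07, adjusted p = 0.000883, limma). Stx2 was at 6.29 and 6.22 against 3.84 and 4.62 FPKM (log2 fold change -0.48, adjusted p = 0.0147, limma), and the call was lost without melanotrope replicate 1 (adjusted p = 0.0795, range 0.000769 to 0.0795). Stx1a, the neuronal partner of Snap25, was at 9.28 and 8.53 against 7.09 and 6.79 FPKM (log2 fold change -0.32, adjusted p = 0.0291, limma). Dropping corticotrope replicate 1 (adjusted p = 0.113) or either melanotrope library (0.0905 and 0.139) ended the call, as did 2 other settings (range 0.00191 to 0.139). Stx4a, the most abundant of the 4 in FPKM, was at 20.2 and 23.5 against 18.9 and 15.7 and was not called (adjusted p = 0.0820, limma). The 4 genes summed to 55.2 ± 1.14 FPKM in corticotropes and 38.9 ± 2.04 in melanotropes (SD, n = 2), with no overlap.

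Snap25 is spliced through either of a pair of alternative exons, 5a or 5b, and the deposited table held a transcript for each (NM_001291056 and NM_011428) with the same start, end and length of 2109 bases. The exons, of 118 bases each, lie at chr2:136769743-136769860 and chr2:136770057-136770174 on the plus strand of GRCm38. They are shown because the difference in FPKM between the transcripts can come only from them. Capitals mark the 31 bases at which they differ:
Snap25 exon 5a: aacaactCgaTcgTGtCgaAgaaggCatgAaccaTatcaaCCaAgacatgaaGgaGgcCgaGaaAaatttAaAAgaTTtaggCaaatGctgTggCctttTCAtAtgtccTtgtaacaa
Snap25 exon 5b: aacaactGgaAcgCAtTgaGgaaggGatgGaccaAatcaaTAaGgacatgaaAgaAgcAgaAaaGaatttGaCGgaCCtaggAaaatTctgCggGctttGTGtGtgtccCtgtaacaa
The 5a transcript had the higher deposited FPKM in all 4 libraries, at 152 against 146 and 133 against 127.5 in corticotropes, and at 131 against 126 and 114 against 110.1 in melanotropes. Spread over the length of the exon, these gaps amounted to 0.786 and 0.806 of the mean Snap25 level in corticotropes and to 0.645 and 0.697 in melanotropes, a ratio that does not depend on the scaling between libraries. They rested on 1581 and 2854 implied reads in corticotropes and 2140 and 2161 in melanotropes. If reads covered the gene evenly, which was not tested, exon 5a would be in 89.3% and 90.3% of corticotrope and 82.3% and 84.9% of melanotrope Snap25 transcripts. Exon 5b is the form known from adult brain. The exact two-sided permutation test of the ratio gave p = 0.333 (0.796 ± 0.0136 against 0.671 ± 0.0370, SD, n = 2), the smallest p that 2 libraries against 2 allow, so the threshold could not be reached.

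Of 7 SNARE regulators, 5 were tested, 1 was higher, 2 were lower and 2 were not called (all genes: 18.9% higher and 18.3% lower). The complexins were called in opposite directions. Cplx3 (chromosome 9, 57599992 to 57606281), a complexin known from ribbon synapses of the retina, was at 3.74 and 3.38 FPKM in corticotropes and at 0.0457 and 0.0244 in melanotropes. The implied reads were 1476 and 2569 against 25 and 13. Its log2 fold change was -2.14 (SE 0.10, adjusted p = 7.72e-05, limma), a value that the pseudocount of 1 FPKM holds small, and -4.76 with a pseudocount of 0.1. It passed the filter only through the corticotrope libraries, and with no filter its adjusted p was 0.00173 (limma, range 2.85e-08 to 0.00173). Cplx2 (chromosome 13, 54371349 to 54383917), the main complexin here, was higher in melanotropes, at 28.4 and 23.5 against 36.9 and 45.9 FPKM (log2 fold change 0.65, SE 0.14, adjusted p = 0.0143, limma). That call was lost without corticotrope replicate 2 (adjusted p = 0.0504) and on the deposited scale (0.250, range 0.000557 to 0.250). Within the family, Cplx3 took 11.6% and 12.5% of complexin FPKM in corticotropes and 0.123% and 0.0527% in melanotropes, whatever the scaling. Cplx1, the complexin of many fast synapses, stayed below 0.5 FPKM, at 0.108 and 0.199 against 0.332 and 0.464.

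Tomosyns bind syntaxin and SNAP25 in place of a VAMP and so restrain fusion. Stxbp5l, which encodes the second tomosyn, was at 8.01 and 6.08 FPKM in corticotropes and 3.69 and 3.97 in melanotropes (log2 fold change -0.73, SE 0.13, adjusted p = 0.00824, limma). Its paralog Stxbp5 was at 4.84 and 4.43 against 4.97 and 5.34 FPKM and was not called (adjusted p = 0.307, limma). Whether the 2 paralogs differ in their response was not tested. Stxbp2, a Munc18 protein that binds Stx3, was at 13.9 and 13.6 against 13.4 and 14.5 FPKM, with overlapping groups. Stxbp6, known as amisyn, was below 0.5 FPKM in every library.

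Of 11 priming proteins and Rab effectors, 10 were tested, 2 were higher, 1 was lower and 7 were not called (all genes: 18.9% higher and 18.3% lower). Rph3a (chromosome 5, 120940500 to 121009518), rabphilin, an effector of Rab3 and Rab27, was at 0.777 and 0.710 FPKM in corticotropes and 4.44 and 3.86 in melanotropes, 5.58 times as high (log2 fold change 1.56, SE 0.10, adjusted p = 0.000224, limma). The melanotrope libraries alone carried it past the filter, and with no filter its adjusted p was 0.00347 (limma, range 1.88e-07 to 0.00347). Its short relative Rph3al, known as Noc2, was more abundant in FPKM, at 16.1 and 13.8 against 12.6 and 14.5, with overlapping groups. Rims3 (chromosome 4, 120877869 to 120891560), a short RIM protein that lacks the Rab3-binding domain, was at 29.5 and 34.4 against 11.8 and 15.4 FPKM (log2 fold change -1.18, SE 0.14, adjusted p = 0.00176, limma). Rims2 was at 10.9 and 9.49 against 9.05 and 8.90 FPKM and Rims1 at 1.77 and 1.85 against 1.17 and 1.47, neither called. Rims3 took 69.9% and 75.2% of RIM FPKM in corticotropes and 53.6% and 59.7% in melanotropes. The 3 genes summed to 43.9 ± 2.57 against 23.9 ± 2.62 FPKM (SD, n = 2).

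Baiap3, a Munc13 relative of dense core vesicle traffic, was the most abundant gene of this role in FPKM and varied between libraries of 1 cell type, at 119.9 and 161 in corticotropes and 106 and 139.8 in melanotropes (adjusted p = 0.471, limma). In each cell type replicate 2 was the higher, so the groups overlapped. Unc13a, the main Munc13 of synapses, was at 20.3 and 15.7 against 27.2 and 20.3 FPKM (log2 difference 0.38, SE 0.17, adjusted p = 0.137, limma), and Unc13b at 8.87 and 6.98 against 8.73 and 7.87. Unc13d, the Munc13 of blood cells, was below 0.3 FPKM in every library. Cadps2 (chromosome 6, 23262774 to 23839421), a CAPS protein that primes dense core granules, was at 37.6 and 42.3 against 49.0 and 59.0 FPKM (log2 fold change 0.42, SE 0.11, adjusted p = 0.0340, limma). The call was lost without corticotrope replicate 1 (adjusted p = 0.147) or melanotrope replicate 2 (0.130) and with no expression filter (0.0724), and the sign turned on the deposited scale (log2 difference -0.05; adjusted p = 0.617, range 0.000184 to 0.617). Its paralog Cadps was at 3.38 and 4.29 against 2.73 and 3.30 FPKM and was not called. Cadps2 made up 91.8% and 90.8% of CAPS FPKM in corticotropes and 94.7% in both melanotrope libraries.

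The 7 transcripts of Cadps2 did not keep the same proportions. Those of 1474, 2201 and 3130 bases share the start of the longest transcript, of 4936 bases, and end before it. The 2201-base transcript stood at 0.887 and 0.849 of the longest transcript's FPKM in corticotropes and at 1.08 in both melanotrope libraries. Ratios for the 1474-base transcript were 0.644 and 0.601 against 0.746 and 0.738, and for the 3130-base transcript 0.726 and 0.702 against 0.889 in both. For all 3, the groups did not overlap, and the ratio is free of the scaling between libraries. The 3 other transcripts, which run the full length of the gene, stood between 1.01 and 1.02 in every library. These transcripts share exons, so reads enter several of them, and no test is given. Such separation was not particular to Cadps2. Ratios to the longest transcript also separated for a Syn2 transcript (0.684 and 0.685 against 0.745 and 0.779) and a Stx3 transcript (0.634 and 0.619 against 0.693 and 0.657). A Rph3al transcript separated in the other direction (0.388 and 0.370 against 0.355 and 0.342). The share of separated ratios over all genes was not computed.

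**Figure D3:**
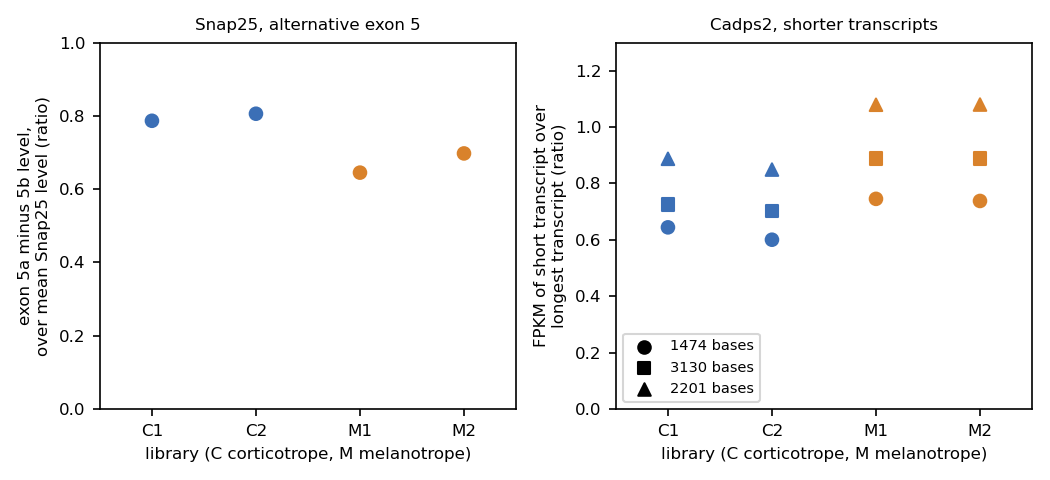
Transcript balance in each library (x axis, C corticotrope and M melanotrope). Left, the level of Snap25 exon 5a minus that of exon 5b over the mean Snap25 level, from 0.786 and 0.806 in corticotropes to 0.645 and 0.697 in melanotropes. Right, FPKM of 3 shorter Cadps2 transcripts over that of the longest, each higher in both melanotrope libraries than in both corticotrope libraries.

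The recycling machinery showed no call, either at the adjusted threshold or at an unadjusted p under 0.05 (0 of 3, limma). At the adjusted threshold, 37.2% of all genes tested were called. Nsf, the ATPase that separates spent SNAREs, was at 25.4 and 22.0 FPKM in corticotropes and 22.2 and 21.4 in melanotropes. Napa, which encodes α-SNAP, was at 49.2 and 47.4 against 51.8 and 49.5 FPKM, and Napb, which encodes the neuronal β-SNAP, at 12.0 and 10.4 against 14.2 and 10.5. On the deposited scale, where the median gene shifts by -0.42, Nsf (log2 fold change -0.57, adjusted p = 0.00598, limma, range 0.00598 to 0.954) and Napa (-0.41, adjusted p = 0.00839, range 0.00839 to 0.849) were called lower, and Napb was not (-0.32, adjusted p = 0.149).

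Vesicle proteins of the SV2 family divided. Sv2a (chromosome 3, 96181227 to 96195180), the binding site of the drug levetiracetam, was at 31.2 and 33.4 FPKM in corticotropes and 45.9 and 47.5 in melanotropes (log2 fold change 0.52, SE 0.08, adjusted p = 0.00374, limma), and the call was lost with no rescaling (adjusted p = 0.534, range 3.69e-05 to 0.534). Sv2b (chromosome 7, 75114895 to 75309262) was at 25.5 and 22.4 against 41.1 and 45.5 FPKM (log2 fold change 0.83, SE 0.10, adjusted p = 0.00169, limma). Sv2c (chromosome 13, 95959443 to 96132577), known from the basal ganglia, was lower in melanotropes at 1.27 and 1.32 against 0.172 and 0.244 FPKM, 6.23 times as high in corticotropes (log2 fold change -0.93, SE 0.10, adjusted p = 0.00115, limma). Only the corticotrope libraries of Sv2c reached the filter, and with no filter its adjusted p was 0.00299 (limma, range 1.81e-05 to 0.0101). Sv2c made up 2.18% and 2.32% of SV2 FPKM in corticotropes and 0.197% and 0.262% in melanotropes. The sum was 57.5 ± 0.621 FPKM in corticotropes and 90.2 ± 4.30 in melanotropes (SD, n = 2), and on the deposited scale melanotropes were also above, at 76.2 and 76.3 against 70.1 and 65.95. Synapsins, which tether vesicles to actin, were not called: Syn1 was at 8.75 and 5.97 against 7.35 and 6.11 FPKM, and Syn2 at 12.4 and 11.1 against 10.02 and 9.88.

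**Figure D4:**
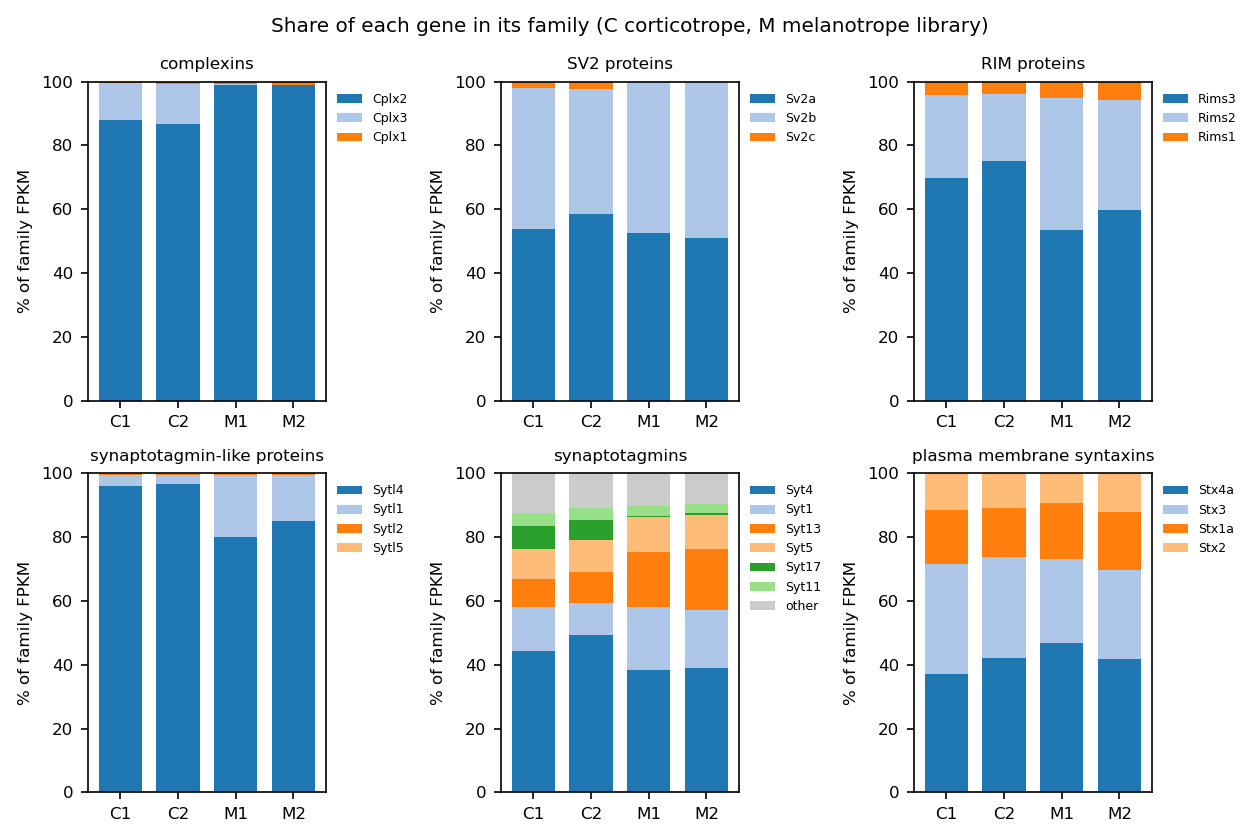
Share of each gene in the summed FPKM of its family (y axis, percent) in each library (x axis, C corticotrope and M melanotrope). Shares do not depend on the scaling between libraries. Cplx3 fills 11.6% and 12.5% of the complexin bar in corticotropes and 0.123% and 0.0527% in melanotropes. Sytl1 grows from 3.66% and 2.90% to 19.4% and 14.5% of the 4 listed synaptotagmin-like genes, a sum without Sytl3. In the panel of 15 synaptotagmins the 9 least abundant are drawn as 1 grey segment.

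Promoter windows from RefSeq, from 250 bases before to 50 bases after a transcript start, on GRCm38.p6 (the mm10 build), were found for 45 of the 58 genes, as 57 windows. Shown are 4 whose start is that of the transcript measured: Cplx3 and Sv2c, which were lower in melanotropes, and Sv2b and Sytl1, which were higher. They lie at chr9:57606232-57606531, chr13:96132528-96132827, chr7:75309213-75309512 and chr4:133263038-133263337, all on the minus strand, and are written along the gene. Capitals mark exact matches, on either strand, to 8 letter strings. These were the cAMP response element TGACGTCA, and CAGATG, which is an E-box of the type bound by Neurod1. Another E-box searched was CAGCTG, and the remaining one, known from factors such as Myc and Usf, was CACGTG. A T-box motif was written as TCACACCT. The Pitx family was represented by the letters TAATCC, while the GC box bound by Sp factors was searched as GGGCGG. The TATA box was searched with the letters TATAAA.
Cplx3 promoter: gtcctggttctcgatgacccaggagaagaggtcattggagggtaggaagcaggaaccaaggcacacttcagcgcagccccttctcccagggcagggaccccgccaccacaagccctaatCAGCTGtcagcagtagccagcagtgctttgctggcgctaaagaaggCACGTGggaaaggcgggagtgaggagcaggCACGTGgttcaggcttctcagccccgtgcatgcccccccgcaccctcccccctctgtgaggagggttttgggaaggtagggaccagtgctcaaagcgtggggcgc
Sv2c promoter: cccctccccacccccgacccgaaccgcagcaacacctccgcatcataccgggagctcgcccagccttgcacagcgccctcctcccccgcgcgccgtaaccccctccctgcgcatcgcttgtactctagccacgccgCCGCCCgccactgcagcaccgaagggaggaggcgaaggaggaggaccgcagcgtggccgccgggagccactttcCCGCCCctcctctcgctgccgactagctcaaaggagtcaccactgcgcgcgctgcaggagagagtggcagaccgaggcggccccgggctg
Sv2b promoter: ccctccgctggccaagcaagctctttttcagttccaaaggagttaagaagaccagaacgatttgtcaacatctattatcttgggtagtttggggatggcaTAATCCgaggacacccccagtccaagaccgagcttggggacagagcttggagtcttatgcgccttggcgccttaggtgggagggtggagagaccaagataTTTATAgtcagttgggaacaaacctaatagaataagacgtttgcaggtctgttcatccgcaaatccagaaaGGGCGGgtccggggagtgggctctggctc
Sytl1 promoter: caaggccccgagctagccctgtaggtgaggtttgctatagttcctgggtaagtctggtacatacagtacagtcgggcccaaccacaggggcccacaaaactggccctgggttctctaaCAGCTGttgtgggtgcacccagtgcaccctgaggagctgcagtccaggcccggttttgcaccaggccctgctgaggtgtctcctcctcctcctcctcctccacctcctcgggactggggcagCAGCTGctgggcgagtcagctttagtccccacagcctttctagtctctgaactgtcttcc
The Cplx3 window held CACGTG at -85 and -55 and CAGCTG at -131, counted from the start. CACGTG occurred in 7.15% of all 32851 windows and in 11 of the 57 exocytosis windows (19.3%). Sytl1 held CAGCTG at -132 and -10, a string found in 16.3% of all windows and in 28.1% of the exocytosis windows. Sv2c held GGGCGG at -114 and -40, on the opposite strand, and Sv2b held it at 21, with TATAAA at -50 on the opposite strand and TAATCC at -150. GC content was 71.7% for Sv2c and 51.3% for Sv2b. GGGCGG was in 35.7% of all windows and 56.1% of the exocytosis windows, TGACGTCA in 1.79% and 3.51%, CAGATG in 17.2% and 8.77%, TCACACCT in 1.28% and 0%, TAATCC in 7.06% and 7.02%, and TATAAA in 13.6% and 7.02%. Windows of 1 gene can overlap, and a match is a description of these letters.

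Other genes of the pathway were taken from lists of SNAREs outside the set, further C2-domain and priming genes, and the exocyst, which tethers vesicles. Of 20 other SNAREs tested, 3 were higher and 2 lower in melanotropes. Those higher, named after their values were seen, were Stx6, of the trans-Golgi network, at 20.8 and 28.4 against 36.3 and 44.7 FPKM, Stx12, of endosomes, at 29.8 and 29.5 against 39.1 and 39.6, and Bet1, of transport from the ER to the Golgi, at 15.0 and 15.8 against 26.2 and 24.1. Of 21 further C2-domain and priming genes tested, 2 were higher and 7 lower. The 3 lowest, also named after their values were seen, follow. Sytl3, a relative of Sytl1, was lower at 7.77 and 5.68 against 1.29 and 1.10 FPKM (log2 fold change -1.80, adjusted p = 0.000475, limma), as was Doc2g, a relative of Doc2b, at 8.94 and 12.0 against 2.56 and 2.94 (-1.60, adjusted p = 0.000663, limma). Syn3, the third synapsin, was lower at 2.63 and 2.36 against 0.743 and 0.660 FPKM (log2 fold change -1.04, adjusted p = 0.000742, limma). Of 10 exocyst genes, all tested, 0 were called (0 higher and 2 lower at an unadjusted p under 0.05, limma). Beside the counts of these lists, 18.9% of all genes tested were called higher and 18.3% lower, or 37.2% together. The median log2 fold changes of the 3 lists were -0.01, -0.13 and -0.03.

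Strand was not stated for the counting, and 13 of the 58 genes share exonic bases with an annotated gene on the opposite strand, from 0.273% of them in Syn1 to 17.2% in Syt12. Among the genes called at 2-fold or more, Syt7 shares 5.13% and Doc2b 5.53%, and the part of these reads in their values was not tested.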

How the data were processed

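The deposited FPKM table, with 1 value per RefSeq transcript in each library, came from HOMER (analyzeRepeats, exon counts, mm10), per the file headers. TopHat, HOMER and edgeR are named, without versions, in the submitters' processing notes, and no source used here gives the strand setting. Deposited columns have nearly equal sums, of which Pomc took 27.8% and 27.2% in corticotropes and 49.7% and 50.9% in melanotropes. Columns were therefore divided by factors of 1.21, 1.16, 0.874 and 0.819 (corticotrope 1 and 2, melanotrope 1 and 2), an unweighted trimmed mean of M values with 30% of M and 5% of A trimmed on each side. The factors used genes with at least 1 FPKM in 2 libraries. This gene set was chosen after factors over all genes had been computed and seen to differ from earlier processing of these data, and factors over all genes are kept as an alternative. Each gene was taken by its longest transcript, and genes with at least 1 FPKM in 2 libraries entered limma 3.58.1 under R 4.3.3 (trend, two-sided, Benjamini-Hochberg, threshold 0.05) on log2(FPKM + 1), a scale that understates changes of low genes. Residual degrees of freedom were 2 and prior ones 3.80. The procedure was also run on simulated data with noise from this same fit and few changed genes, balanced in direction. That run cannot show how the procedure performs where 37.2% of genes are called, as here. Implied reads are FPKM times length over the spacing of low values, of which 100% were whole multiples within 0.1 of a step. They are approximate, and whether a read pair counted once is not stated. Genes with full statistics were those called at 2-fold or more, the most abundant of each role, and those whose nearest paralog had another call. Members and lists were chosen with earlier results of these data known, and the letter strings with the sequences in view. Samples were grouped by the labelled cell type. Alternatives were other scalings, filters, pseudocounts, transcripts and prior variances, a replicate block and leave-one-out fits.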

Additional observations from a re-analysis of the deposited data

How the results depend on the processing

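Of the 21 calls, 14 held in each of the 15 alternatives that tested them, among them the 9 at 2-fold or more, and the 7 others are given with their results. Of the 14, Cplx3 and Rph3a were tested in 13 alternatives and Sv2c in 12. They missed the filter in fits without a library of their higher cell type, so their calls could not be lost there. On the deposited scale 6 genes of the set were called higher and 31 lower (11.8% and 60.8%). Over all genes the calls were 939 and 8787 (7.14% and 66.8%). Of the set, 2 and 9 were called at 2-fold or more (3.92% and 17.6%), a size for which no share over all genes is given at this setting. A pseudocount of 5 left 3 higher and 1 lower at 2-fold (6.0% and 2.0%), also without a share over all genes at that size. Its calls of any size were 10 higher and 10 lower (20.0% each, against 18.7% and 18.0% of all genes). Factors over all genes, an alternative chosen after seeing the data, gave 10 higher and 10 lower (20.0% each, against 18.7% and 17.5% of all genes). Sytl4 was not among them (adjusted p = 0.0610, limma). The next counts come from fits with 1 library in a cell type, and the set and all genes differ in the number tested. They are given without shares and leave out the calls of the set that were higher. The set therefore cannot be compared with all genes from these counts. Leaving out 1 library, where the lone library of a cell type is assumed to vary like the other cell type and fewer genes are tested, gave 7 to 10 genes of the set lower, and over all genes 1358 to 1809 higher and 1438 to 1670 lower. Dropping melanotrope replicate 1 made Stx4a a lower call, and dropping melanotrope replicate 2 made Unc13a a higher one. Vamp8 became a higher call with equal sums except Pomc (adjusted p = 0.0304, limma), and Rims1 a lower one by its transcript of highest mean FPKM (adjusted p = 0.0415, limma). With the replicate number as a block, 14 of the set were higher (28.0%, against 3661 of all genes, 28.1%) and 17 lower (34.0%, against 3538, 27.1%). The calls added by the block were Syt4, Snap25, Vamp8 and Unc13a higher, and Stx4a, Vamp3, Baiap3, Cadps, Rims1 and Syn2 lower. The labels share only the number, over 2 pairs, and deviations of libraries with the same number correlated at 0.525 across genes. Signs turned for 34 values, all of genes not called except Cadps2. Of these, 15 were on the deposited scale, which by construction moves the median gene by -0.42, and the cause of the 19 others was not tested. The log2 differences were, on the deposited scale, Syt3 -0.20, Syt4 -0.28, Syt11 -0.36, Snap25 -0.22, Snap29 -0.39, Stxbp2 -0.43, Stxbp5 -0.27, Vamp1 -0.21, Vamp2 -0.41, Vamp8 -0.21, Unc13a -0.082, Unc13b -0.36, Cadps2 -0.051, Napa -0.41 and Napb -0.32. With equal sums except Pomc they were Snap23 0.054 and Vamp4 0.0045, and for Snap23 0.013 with median-ratio scaling and 0.0058 with factors over all genes. Over the fits that leave out 1 library they ran as follows: Snap23 -0.22 to 0.22, Snap29 -0.0037 to 0.10, Stxbp2 -0.0298 to 0.075, Vamp2 -0.16 to 0.26, Vamp4 -0.13 to 0.0197, Unc13b -0.089 to 0.22, Baiap3 -0.40 to 0.022, Napb -0.078 to 0.33 and Syn1 -0.34 to 0.14. Depth limits Cplx3, Syt6, Syt10 and Syt2 in melanotropes, each under 30 implied reads. It also limits Syt10 and Syt2 in corticotropes, at 25 and 59 implied reads for Syt10 and 15 and 31 for Syt2.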
